A study of Homo sapiens and Homo sapiens
Mus musculus and Mus musculus with 200 samples.

Results

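TWIST1 binding was compared between human cranial neural crest cells (hCNCC) labelled as lacking ALX4 and wild-type hCNCC, before any degrader had been added. The comparison rests on 4 of the 200 ChIP-seq samples of the study, namely 2 TWIST1 peak lists of the line ALX1FV ALX4- and 2 of WT, all taken at 0 h of dTAGV-1 (500 nM) with the same TWIST1 antibody. The ALX4-null lists held 52890 and 43274 peaks and the WT lists 59282 and 49107. Peaks of the 4 lists that shared at least 1 bp were merged, which gave 80191 sites. Of these, 4035 sites (5.03%) were present in both ALX4-null lists and neither WT list, 7494 (9.35%) in both WT lists and neither ALX4-null list, and 27897 in all 4. The remaining 40765 sites were found in some other combination of lists. These sets were fixed by presence in the lists, so their counts are a description and carry no test. They also rest on having 2 lists per line. With a single ALX4-null list the null-only count was 6879 (without replicate 1) or 12000 (without replicate 2), and it was 6888 without WT replicate 1. The WT-only count was 11608 without WT replicate 1, 18239 without WT replicate 2 and 11919 without ALX1FV ALX4- replicate 1.

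TWIST1 is a basic helix-loop-helix factor that binds as a dimer with an E protein to the E-box, a 6-letter site of the form CANNTG. It shapes the mesenchyme of the face and limb buds and is mutated in craniosynostosis. ALX4 and its relative ALX1 are paired-type homeodomain factors of the frontonasal mesenchyme that recognise sites built on TAAT. In facial and limb mesenchyme TWIST1 is known to bind next to homeodomain factors on a composite motif, an E-box and a homeodomain site at a fixed distance, and a double E-box with 5 bp between its parts has been described for TWIST1 complexes alone.

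All 4 samples are H9 human embryonic stem cells differentiated to cranial neural crest. The WT cells were not edited and no clone is named for them. ALX1FV ALX4- carries on ALX1 a tag (FKBP12F36V with V5) through which dTAGV-1 can degrade it, and in addition lacks ALX4. Its replicates are 2 clones, c22 (#2) for replicate 1 and c14 (#3) for replicate 2. At 0 h ALX1 had not been degraded, so the null line differs from WT in the loss of ALX4, in the tag on ALX1 and in having passed through single-cell cloning. Chromatin of the mouse neural crest line O9-1 had been added to the WT libraries and not to the ALX4-null ones. The effect of ALX4 cannot be told apart from these other differences in the TWIST1 lists. For the mark H3K27ac a line with the tag alone, ALX1FV (clones c17 and c33), gave a second comparison. TWIST1 peak lists do not show whether the ALX4 gene was disrupted, and the label was taken as given.

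Cell identity could be read from H3K27ac, a mark of active promoters and enhancers, in the 0 h libraries of WT, ALX1FV and ALX1FV ALX4- (2 each). All 13 genes of a cranial neural crest mesenchyme list had an ATAC peak at their start sites, and their summed H3K27ac was 1046 and 1047 CPM (counts scaled to the library total) in WT, 1037 and 1022 in ALX1FV and 954 and 883 in ALX1FV ALX4-. Without ALX1 and ALX4 the other 11 genes summed to 576.7 and 594.3, 632.5 and 628.9, and 675.3 and 603.6 CPM, so the lower sum lay in those 2 genes. Members went both ways, with PRRX1 at 48.1 and 62.0 CPM in WT and 103 and 99.3 in the null line, and TFAP2B at 63.0 and 66.4 against 39.7 and 38.9. Lists for neurons and neural progenitors (6.01 to 8.62 CPM), glia and melanocytes (30.5 to 35.6) and epithelium (12.1 to 19.2) were low in all 6 libraries. The pluripotency list summed to 123 to 137 CPM in WT and ALX1FV and to 198 and 176 in ALX1FV ALX4-. Most of that came from LIN28A, with 111 to 127 CPM in the other lines against 184 and 163 in the null line. POU5F1 and NANOG had no ATAC peak at their starts, and SOX2 stayed between 0.565 and 1.64 CPM. The part of this LIN28A difference in the results below was not tested.

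The sequences shown first are 5 of the strongest null-only sites that hold 2 CANNTG sites with 5 bp between them, called the E-box pair below. Each is printed 5′ to 3′ on the forward strand of hg38 with both E-boxes in capitals. MCOLN3 is at chr1:85020160-85020220, NT5E at chr6:85436615-85436675, AUTS2 at chr7:69518524-69518584, CTNNA1 at chr5:138600570-138600630 and LRIG1 at chr3:66738762-66738822, each named by the nearest protein-coding start site, which does not show that the site acts on that gene. All 5 were absent from both WT lists at 0 h but present in the hCNCC list described below. Of the WT lists at 3 h, AUTS2 was present in both, MCOLN3 and NT5E in 1 each, and CTNNA1 and LRIG1 in neither.
MCOLN3: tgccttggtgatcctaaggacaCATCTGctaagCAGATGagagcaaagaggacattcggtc
NT5E: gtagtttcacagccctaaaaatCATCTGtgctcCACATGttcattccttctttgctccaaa
AUTS2: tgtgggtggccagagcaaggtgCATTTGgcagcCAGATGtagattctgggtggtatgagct
CTNNA1: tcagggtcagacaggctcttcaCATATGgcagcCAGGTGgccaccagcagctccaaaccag
LRIG1: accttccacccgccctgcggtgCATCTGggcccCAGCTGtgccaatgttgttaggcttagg
The 5 sites were chosen for this spacing, so only the letters inside and around the E-boxes could differ. At MCOLN3 both E-boxes were of the CAGATG type read from either strand.

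For contrast, 4 of the 5 strongest WT-only sites with the composite motif are shown (CTAGE1, with fold enrichments of 32.7 and 14.8, is left out) with the E-box and the homeodomain site in capitals. CNTN1 is at chr12:40946021-40946081 (forward strand), DNAH5 at chr5:13412251-13412311 (reverse strand), HDAC4 at chr2:239669565-239669625 (forward strand) and COLGALT2 at chr1:183934403-183934463 (forward strand), all in hg38.
CNTN1: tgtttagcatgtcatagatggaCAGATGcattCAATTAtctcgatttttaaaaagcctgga
DNAH5: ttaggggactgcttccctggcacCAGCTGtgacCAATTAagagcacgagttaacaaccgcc
HDAC4: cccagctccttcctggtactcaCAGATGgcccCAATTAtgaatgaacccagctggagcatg
COLGALT2: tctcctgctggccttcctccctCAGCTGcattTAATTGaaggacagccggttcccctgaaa
Here 4 bp separate the E-box from a TAATTG site, which is written CAATTA where it lies on the other strand.

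Both line-only sets were weak. The deposited fold enrichment over control, the authors' own value per peak, had a median of 6.49 and 5.74 in the 2 lists that hold the null-only sites and 6.99 and 6.18 for the WT-only sites. Shared sites had medians of 12.6 and 10.7 in the ALX4-null lists and 16.2 and 14 in WT. The strongest null-only site reached 87.7 and 65.3, and the strongest WT-only values were 59.2 and 46.0. In percentile rank within its own list, the median null-only site stood at 41.1 and 31.6 and the median WT-only site at 42.6 and 33.3, so most lay below the middle of their lists. Just outside the rule, 4065 sites were in both ALX4-null lists and 1 WT list, with a median −log10 q of 6.09 in that WT list. Another 6488 were in both WT lists and 1 ALX4-null list, with a median of 6.61 there. The lists reach down to a −log10 q of 1.31. Of the sites seen in a single list, 7901 and 2764 came from the ALX4-null replicates and 10596 and 4003 from the WT replicates.

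**Figure D1:**
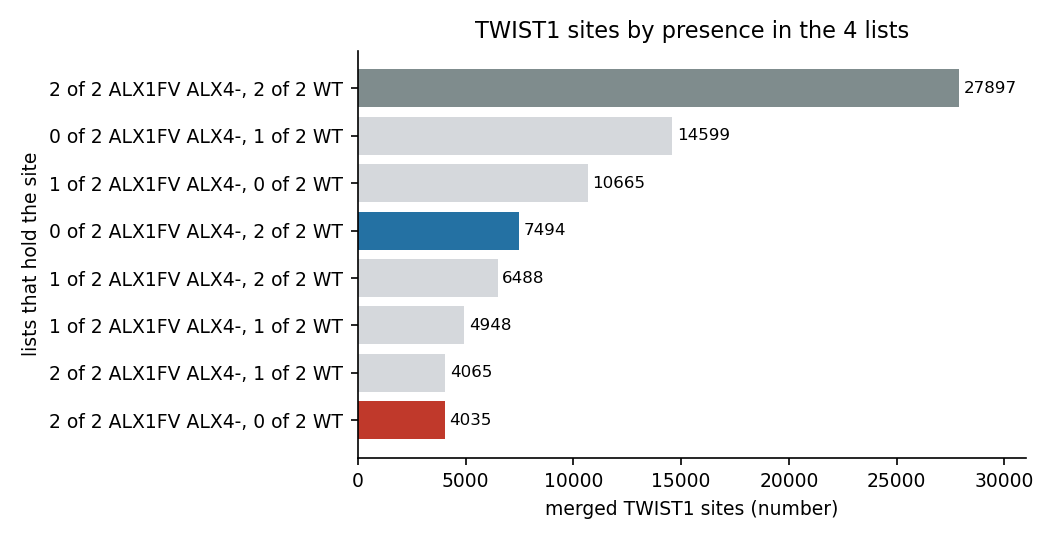
Number of merged TWIST1 sites (x axis) for each combination of the 2 ALX1FV ALX4- and 2 WT lists that hold them (y axis). The 27897 sites in all 4 lists are the most frequent pattern, the 7494 WT-only sites (blue) outnumber the 4035 null-only sites (red), and 14599 and 10665 sites were in a single list.

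The letters under the peaks differed between the sets. Motifs were searched on both strands within 100 bp of each summit. The E-box forms searched were CAGATG, which reads CATCTG on the other strand, and the palindromic CAGCTG. The last form was the palindrome CATATG. Any of the 3 forms was present at 78.9% of null-only sites (3184 of 4035, Wilson 95% interval 77.6 to 80.1), 58.8% of WT-only sites (57.7 to 59.9) and 72.1% of shared sites (71.6 to 72.6). The homeodomain sites TAATTA and TAATTG, with the reverse complement CAATTA, went the other way, at 11.3% (10.4 to 12.3), 27.6% (26.6 to 28.6) and 24.6% (24.1 to 25.1). Over all 80191 sites the shares were 65.6% and 21.8%. In windows of the same length 1000 bp to either side of the summits, E-boxes stood at 25.6%, 24.0% and 24.2% and homeodomain sites at 14.7%, 17.4% and 16%. Null-only sites thus held fewer homeodomain sites than their own flanks, and WT-only sites more. The median GC content of the windows was 50.2% for null-only, 42.3% for WT-only and 45.8% for shared sites, and its part in the motif shares was not tested. Intervals here and below cover counting error only.

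The E-box pair also differed. It was found at 17.5% of null-only sites (708 of 4035, interval 16.4 to 18.8), at 1.59% of WT-only sites (119 of 7494, 1.33 to 1.90), at 4.50% of shared sites (1256) and at 4.29% of all sites. Flanking windows held it at 0.496%, 0.527% and 0.475%. No other gap between 0 and 20 bp stood out in the same way. At those gaps null-only sites lay between 1.07% and 2.90%, WT-only sites between 0.907% and 1.51% and shared sites between 1.21% and 1.94%. At a gap of 5 bp the WT-only share therefore lay just above its range at other gaps. When both E-boxes had to be of these 3 forms, the pair remained at 6.47% of null-only sites (261), 0.147% of WT-only sites (11) and 1.36% of shared sites (379).

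The composite of E-box and homeodomain site, 4 bp apart in either order, was most frequent at shared sites. It was present at 3.30% of them (920, interval 3.09 to 3.51), at 1.48% of WT-only sites (111, 1.23 to 1.78) and at 0.843% of null-only sites (34, 0.604 to 1.18), against 2.13% of all sites. Flanking windows held it at 0.0430%, 0.0600% and 0.0248%, so each set lay above its flanks. At other gaps between the same 2 sites no set passed 0.347%. With any 2 bases after TAAT the composite rose to 14.5% of shared, 10.8% of WT-only and 2.83% of null-only sites. Among single E-box cores, CAGATG was held by 57.6% of null-only, 35.3% of WT-only and 48.2% of shared sites, and CAGCTG by 30.5%, 23.7% and 29.4%.

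**Figure D2:**
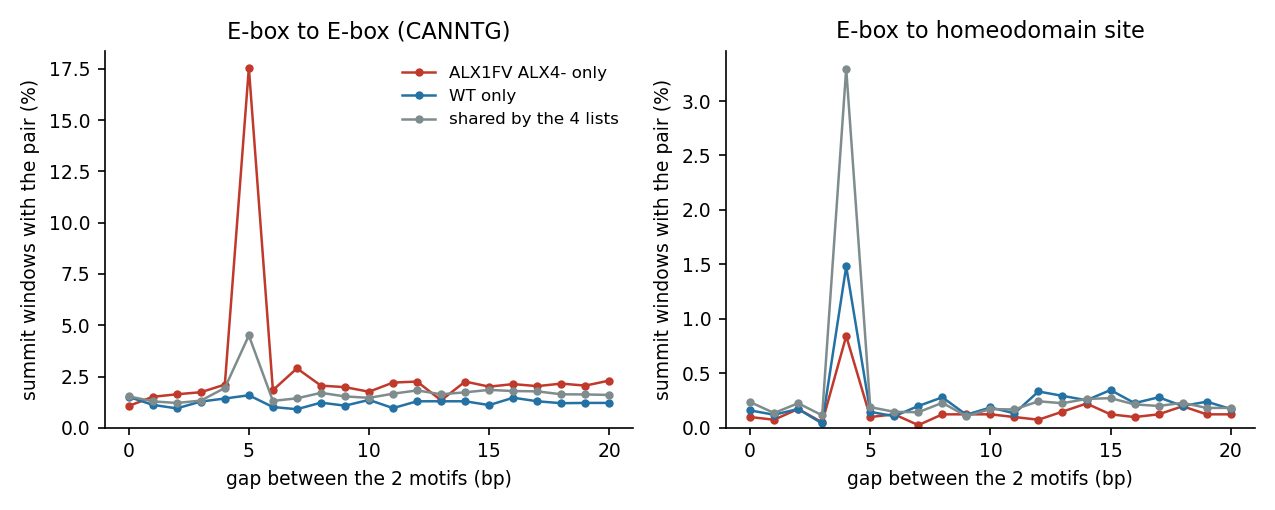
Share of summit windows (y axis, percent) that hold 2 CANNTG sites (left) or an E-box and a homeodomain site (right) at each gap from 0 to 20 bp (x axis), for null-only (red), WT-only (blue) and shared sites (grey). On the left the null-only line peaks at a gap of 5 bp with 17.5%, where WT-only stands at 1.59%. On the right all 3 lines peak at 4 bp, with 3.30% in the shared set, 1.48% in WT-only and 0.843% in null-only.

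The same difference was present in whole lists. These contain the line-only sites, so they are not independent of the site sets. The E-box pair was held by 5.63% and 5.76% of all peaks in the ALX4-null lists and by 3.18% and 3.12% in the WT lists, that is 5.70% ± 0.0922 against 3.15% ± 0.0386 (SD, n = 2 each). Among the 2000 peaks of each list with the highest −log10 p, called the strongest 2000, it was held by 14.4% and 14.05% against 5.85% and 5.50%. The 2 lines did not overlap, and the difference of 2.55 percentage points over all peaks was far larger than the spread between replicates. An exact two-sided permutation test gave p = 0.333, the smallest value that 2 against 2 libraries allow (0.37 adjusted over 10 motif comparisons). The composite stood at 2.47% and 2.56% over all peaks in ALX4-null and at 2.46% and 2.51% in WT, a difference of 0.0366 percentage points that lay within the spread between replicates (exact p = 0.667, adjusted 0.667). With any 2 bases after TAAT the difference was -1.44 points. Among the strongest 2000 peaks it stood at 6.15% and 5.70% in the null line against 4.75% in both WT lists. Null lists held more E-boxes (70.8% ± 0.518 against 65.3% ± 0.126) and fewer homeodomain sites (20.7% ± 0.206 against 24.3% ± 0.104), again without overlap.

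Other hCNCC TWIST1 lists, not used to choose the sites, lay between or beside WT. The E-box pair was at 3.16% and 3.13% of peaks in WT cells at 3 h of dTAGV-1, at 3.94% and 4.13% in TWIST1FV at 0 h, a line with the degradable tag on TWIST1, and at 4.39% in a single list labelled hCNCC. In the strongest 2000 peaks the values were 5.70% and 5.45%, then 6.60% and 6.75%, then 8.75%. All 7 lists from lines with intact ALX4 were below both ALX4-null lists. The TWIST1FV and hCNCC lists came closer to the null line than WT did. Per the labels the hCNCC library and both null libraries had no mouse chromatin, while the WT and TWIST1FV libraries did, and its part in these shares was not tested.

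**Figure D3:**
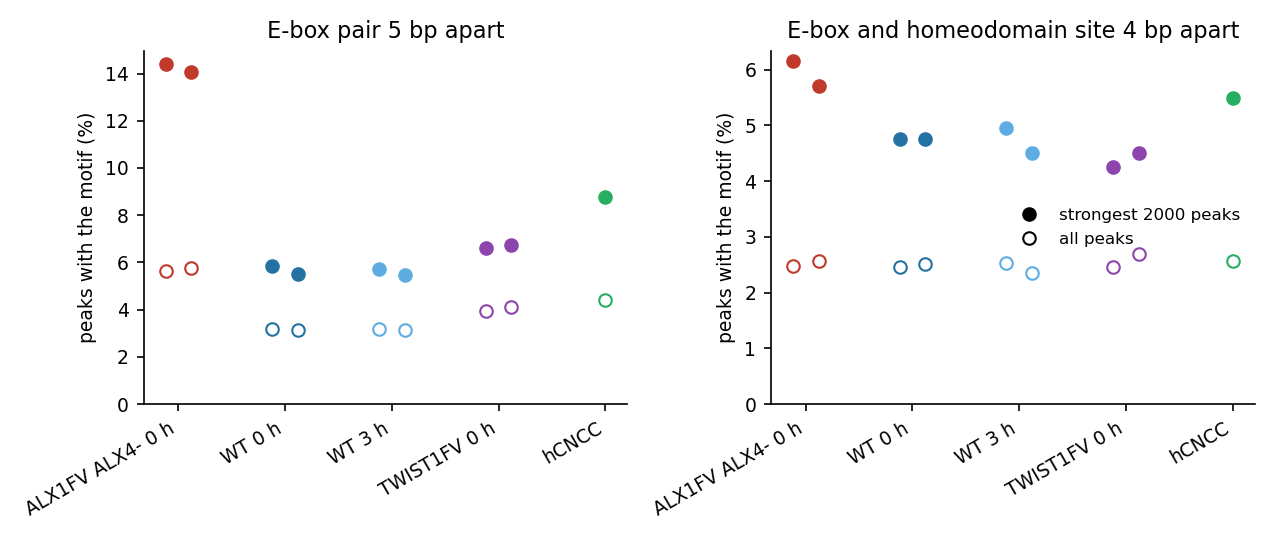
Percent of peaks (y axis) that hold the E-box pair 5 bp apart (left) or the composite 4 bp apart (right) in each TWIST1 list, 1 point per library (x axis, grouped by line), over all peaks (open) and the strongest 2000 (filled). On the left both ALX1FV ALX4- libraries stand above the other 7, with 14.4% and 14.05% of the strongest peaks against 5.45% to 8.75%. On the right all open points lie between 2.36% and 2.68%.

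Those further lists also showed how far a line-only call carried to other libraries. Of the null-only sites, 20.1% and 20.9% were present in the 2 WT lists at 3 h (20.5% ± 0.613, n = 2), 9.79% and 3.54% in the TWIST1FV lists and 47.4% (1912 of 4035) in the hCNCC list. WT-only sites were present at 77.0% and 70.4% at 3 h, 31.2% and 15.8% in TWIST1FV and 65.2% (4888 of 7494) in hCNCC. For shared sites the values were 96.3% and 96.2%, 82.3% and 71.3%, and 97.4%. Close to 1 null-only site in every 2 thus had a TWIST1 peak in an hCNCC library labelled with no loss of ALX4.

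The overlap with the hCNCC list rose with strength in both sets. Of the 127 null-only sites with a mean percentile rank over 80 in their 2 lists, 96.9% were in the hCNCC list, 34.6% in at least 1 WT list at 3 h and 30.7% in at least 1 TWIST1FV list. The 868 null-only sites of rank 20 or below were in the hCNCC list at 27.9%. The E-box pair followed the same order, from 5.07% of the weakest to 57.5% of the strongest null-only sites, and none of the 127 strongest held the composite. Of the 105 WT-only sites ranked over 80, 95.2% were in the hCNCC list and all were in both WT lists at 3 h.

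Requiring absence from the WT 3 h and hCNCC lists as well left 1598 null-only sites. Of these, 79.2% held an E-box, 16.1% (257) the E-box pair and 0.313% (5) the composite. Null-only sites split by the hCNCC list held the pair at 22.5% of the 1912 that were in it and at 13.0% of the 2123 that were not. The 3361 WT-only sites that were also in both WT 3 h lists and the hCNCC list held the pair at 1.87% and the composite at 1.49%. The pair thus stood at 16.1% against 1.87% in these sites, beside 17.5% against 1.59% in the full sets. This stricter choice was added after the data had been seen.

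V5-tagged TWIST1 introduced into HEK293, a human embryonic kidney line, and pulled down through V5 offered a comparison with and without ALX4 in other cells. Null-only sites were present in 21.1%, 16.6% and 30.5% of cases in the 3 lists with TWIST1 alone (22.7% ± 7.1) and in 10.1%, 14.4% and 21.8% in the 3 lists with TWIST1 and ALX4 (15.4% ± 5.94). WT-only sites were present at 6.37%, 4.16% and 8.77% with TWIST1 alone (6.43% ± 2.30) and at 11.4%, 14.7% and 19.2% with ALX4 (15.1% ± 3.93). The 2 conditions overlapped for null-only sites and did not for WT-only sites. Shared sites were at 20.3% ± 4.64 and 32.0% ± 6.60. The HEK293 lists ranged from 22465 to 56014 peaks without ALX4 and from 29430 to 65005 with it, and the part of list length was not tested.

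The V5 tag on ALX1 allowed its own peaks to be placed on the sites. The V5 lists were short, with 1389 and 376 peaks in ALX1FV and 920 and 1116 in ALX1FV ALX4-. Null-only sites had almost no V5 peak, with 2 and 0 of 4035 in ALX1FV and 1 and 1 in ALX1FV ALX4-. WT-only sites had 17 and 0 of 7494 in ALX1FV, and 0 and 0 in ALX1FV ALX4-. Shared sites held a V5 peak at 4.69% and 1.33% in ALX1FV and at 3.25% and 3.89% in ALX1FV ALX4-. Peaks of AP2a, a neural crest factor, in 2 hCNCC lists lay on 12.3% and 14.1% of null-only, 6.06% and 7.02% of WT-only and 27.7% and 30.2% of shared sites.

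Within the 27897 shared sites, the order of binding strength had also moved. Each list was ranked by fold enrichment over these sites alone, so that lists of different length could be compared. Replicates agreed more closely (Spearman 0.840 for ALX4-null, 0.892 for WT) than libraries of different lines (0.672 to 0.691), which is a description across sites. By limma on normal scores, at a Benjamini-Hochberg false discovery rate of 0.05, 1505 sites ranked higher in ALX4-null (5.39%) and 1429 lower (5.12%). The counts depend on the measure and on single libraries. By the deposited −log10 p they were 3502 and 3723, and on percentile ranks without normal scores 862 and 727. In the analysis first given they were 760 and 290 without WT replicate 1, 763 and 280 without WT replicate 2, and 889 sites ranked higher without ALX1FV ALX4- replicate 2.

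Shared sites with an E-box pair sat higher in the null line. Their median percentile rank was 76.7 and 75 in the ALX4-null lists and 51.2 and 49.9 in WT (n = 1256), a median change of +12.9 points, against +0.0152 over all shared sites. Of them, 418 (33.3%) ranked higher and 30 lower. With both E-boxes of the narrower set (n = 379) the medians were 85.4 and 84.0 against 49.4 and 48.5, and 206 (54.4%) ranked higher and 6 lower. Sites with the composite (n = 920) moved little, from 60.9 and 60.8 in WT to 65.7 and 62.5, with 30 higher (3.26%) and 21 lower (2.28%), both below the background shares. Sites with a homeodomain site and no E-box (n = 2528) went from 54.1 and 55.2 in WT to 46.1 and 46.7, with 30 higher and 196 lower (7.75%).

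**Figure D4:**
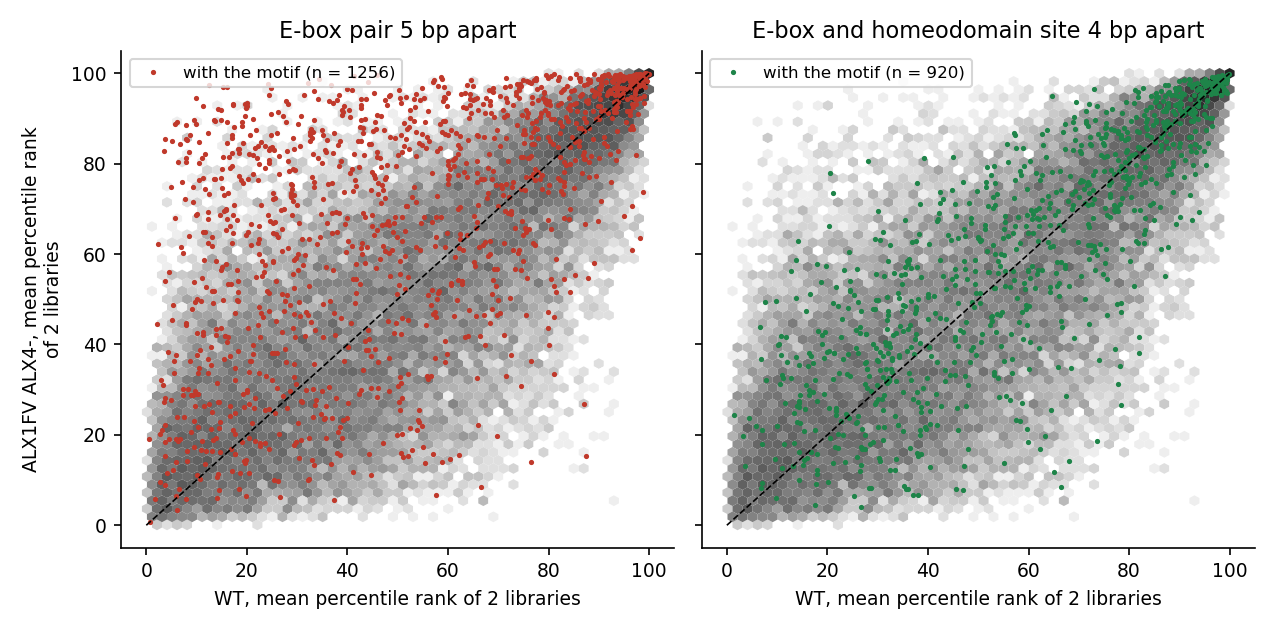
Mean percentile rank of each shared site in the 2 ALX1FV ALX4- lists (y axis) against that in the 2 WT lists (x axis), with the density of all 27897 sites in grey and equal ranks on the dashed line. Sites with the E-box pair (left, n = 1256) gather above the line, with medians of 76.7 and 75 against 51.2 and 49.9. Sites with the composite (right, n = 920) lie along it.

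Read from the calls instead, 27.8% of the 1505 sites that ranked higher held the E-box pair, against 2.10% of the 1429 that ranked lower and 3.24% of the rest. The composite was held by 1.99%, 1.47% and 3.48%. Homeodomain sites were at 14.2% of the higher, 34.1% of the lower and 24.6% of the remaining sites, and median GC was 49.8%, 43.3% and 45.8%. V5 peaks of ALX1FV lay on 12.7% and 3.08% of the sites that ranked lower and on 1.26% and 0.133% of those that ranked higher. In ALX1FV ALX4- the same shares were 2.17% and 4.27% against 1.66% and 1.2%. HEK293 lists held the lower-ranked sites at 7.91% ± 2.57 with TWIST1 alone and 31.0% ± 5.71 with ALX4 added, and the higher-ranked sites at 32.3% ± 6.87 and 21.8% ± 6.73 (n = 3 each).

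Ranks in libraries that had no part in the calls are set beside those of the null and WT lists. The sites were called on the null and WT ranks at 0 h, so both lines stand at the extremes by selection. Any library left out of the calls would tend to lie between them. Over the 18477 sites found in all 9 lists, the 967 that ranked higher in the null line had a median percentile of 78.8 and 78.7 there and of 23.5 and 21.7 in WT. The same sites were at 27.4 and 28.5 in WT at 3 h, 42.2 and 42.8 in TWIST1FV and 50.9 in the hCNCC list. The 1345 that ranked lower were at 19.0 and 22.2 in the null line, 71.1 and 70.7 in WT, 68.0 and 67.0 in WT at 3 h, 63.9 and 62.2 in TWIST1FV and 55.1 in hCNCC. The hCNCC library therefore stood near the middle for both groups.

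The largest riser among shared sites lay near EZH2, the histone methyltransferase subunit of Polycomb repressive complex 2, at chr7:148809825-148810777 in hg38, 1555 bp from its start. Its fold enrichment was 58.1 and 48.0 in ALX4-null and 3.4 and 4 in WT (difference of 3.68 normal scores, SE 0.35, limma adjusted p = 3.84e-05), and H3K27ac rose there by 1.68 on the log2 scale against WT (SE 0.28), with 0.77 against ALX1FV (adjusted p = 0.13). A site 41351 bp before ENPP7, a sphingomyelinase gene, had 83.8 and 68.0 against 6.55 and 5.74 (adjusted p = 2.46e-05), and one in an intron of SLC12A8, a solute carrier gene, had 104 and 54.2 against 6.49 and 7.07 (adjusted p = 3.03e-05). H3K27ac rose by 3.51 at ENPP7 (SE 0.46), and its value at SLC12A8 was 0.12 (adjusted p = 0.923). The SLC12A8 site was picked because it holds an E-box pair and was not among the 5 largest risers. Those lay near EZH2, ENPP7, CYP7A1, NTMT2 and FAR2, and the sites near EZH2, NTMT2 and FAR2 held no pair. The pairs of ENPP7 and SLC12A8 are shown in capitals on the forward strand of hg38 for chr17:79689550-79689610 and chr3:125186885-125186945.
ENPP7: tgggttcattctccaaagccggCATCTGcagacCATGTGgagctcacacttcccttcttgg
SLC12A8: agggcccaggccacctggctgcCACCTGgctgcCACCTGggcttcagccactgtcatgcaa
The largest fallers were near ZNF789, a zinc finger gene (7.90 and 2.58 in ALX4-null against 73.8 and 53.6 in WT), FRMPD1, a scaffold protein gene (4.16 and 4.24 against 105 and 43.1), and SF3A1, a splicing factor gene (3.51 and 5.05 against 54.2 and 76.7). H3K27ac fell by 2.45, 4.28 and 3.27 on the log2 scale at these 3 sites. In each case the 2 lines did not overlap.

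H3K27ac was not used to choose the sites and moved with TWIST1 occupancy. Counts over 115518 tested ATAC peaks (6091885 to 8811096 per library over all peaks) were compared with edgeR's quasi-likelihood test at a false discovery rate of 0.05. Against WT, 4.58% of tested peaks were higher in ALX1FV ALX4- and 7.05% lower. Of the 2860 peaks that overlap null-only sites, 704 (24.6%) were higher and 16 lower, with a median log2 fold change of 0.84. Of the 4615 at WT-only sites, 984 (21.3%) were lower and 9 higher, with a median of -0.82. Peaks at shared sites numbered 29723, of which 5355 (18.0%) were lower and 1375 higher (median -0.26), and the 55519 peaks with no TWIST1 site had 2067 higher and 636 lower (median 0.25). The median over all tested peaks was 0.03. In bulk chromatin, signal in fewer cells and less signal per cell cannot be told apart.

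Peaks at shared sites that changed rank followed that change. Where TWIST1 ranked higher, 591 of 1644 peaks (35.9%) gained H3K27ac and 21 lost it (median 0.87). Where it ranked lower, 1064 of 1608 (66.2%) lost it and 2 gained it (median -1.51). Shared sites with an E-box pair had 253 higher (18.9%) and 128 lower (9.57%) of 1338 (median 0.16). Those with the composite had 24 higher (2.80%) and 102 lower (11.9%) of 856 (median -0.20). Over all peaks at shared sites 4.63% were higher and 18.0% lower (median -0.26), so both composite shares lay below these. Null-only sites absent also from the WT 3 h and hCNCC lists had 293 of 1056 higher and 1 lower (median 1.03). Those present in the hCNCC list had 348 of 1375 higher and 9 lower (median 0.89).

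Against ALX1FV, which shares the tag on ALX1 and the absence of mouse chromatin with the null line, fewer peaks passed, 0.847% higher and 2.94% lower. Null-only sites had 189 of 2860 higher (6.61%) and 3 lower (median 0.51). WT-only sites had 352 of 4615 lower (7.63%) and 1 higher (median -0.64). Shared sites had 2529 of 29723 lower (8.51%) and 348 higher (1.17%), with a median of -0.21. Peaks at WT-only sites were thus called lower no more often than those at shared sites in this comparison. Sites that ranked lower had 697 of 1608 lower and 1 higher (median -1.18), and sites that ranked higher had 218 of 1644 higher and 5 lower (median 0.50). This comparison and the one against WT share the 2 ALX1FV ALX4- libraries, so they are given side by side only.

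Single libraries weighed on these counts. Against WT the null-only sites had 372 higher peaks without ALX1FV ALX4- replicate 1, 384 without WT replicate 1 and 415 without WT replicate 2. WT-only sites had 506 lower without ALX1FV ALX4- replicate 1 and 560 without WT replicate 1, and shared sites had 3251 and 3321 lower. Against ALX1FV the null-only count was 45 without ALX1FV ALX4- replicate 1, 117 without replicate 2 and 303 without ALX1FV replicate 1, and WT-only and shared sites had 112 and 1113 lower without ALX1FV ALX4- replicate 1. Scaling by library size alone moved the median over all peaks to 0.17 against WT and to 0.08 against ALX1FV. Under that scaling 52.8% of calls against WT were higher in place of 39.4%, and 31.2% in place of 22.4% against ALX1FV. The medians at null-only, WT-only and shared sites were then 0.99, -0.67 and -0.12 against WT.

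**Figure D5:**
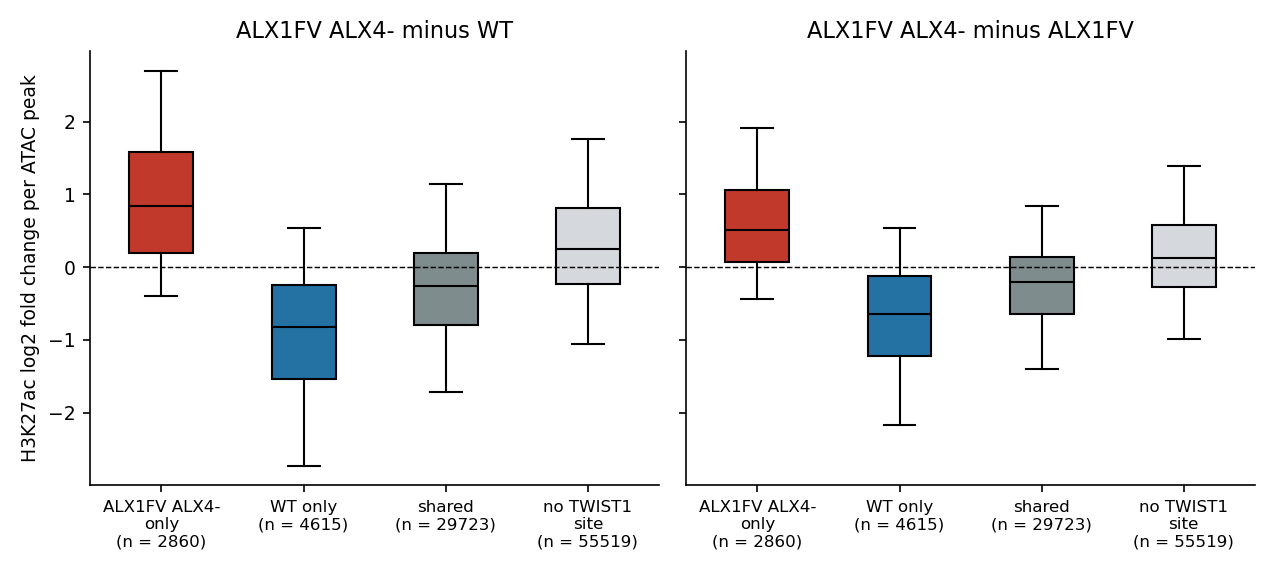
Log2 fold change of H3K27ac (y axis) in ALX1FV ALX4- against WT (left) and against ALX1FV (right) for ATAC peaks that overlap each set of TWIST1 sites or none (x axis, n is the number of peaks). Boxes span the quartiles with the median as a line, and whiskers run from the 5th to the 95th percentile. The medians against WT are 0.84, -0.82, -0.26 and 0.25 from left to right, and those against ALX1FV are 0.51, -0.64, -0.21 and 0.12.

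The single strongest null-only site lay at chr13:53612011-53612865, 583689 bp from the start of OLFM4, which codes for a secreted glycoprotein. Its fold enrichment was 87.7 and 65.3, it was in neither WT list at 3 h and in both TWIST1FV lists, and it held no E-box pair. H3K27ac counts there were 26 and 14 in WT, 44 and 15 in ALX1FV and 383 and 234 in ALX1FV ALX4-, a log2 fold change of 3.79 against WT (SE 0.40, edgeR adjusted p = 3.08e-06) and of 3.02 against ALX1FV (SE 0.38, adjusted p = 7.33e-05). The null libraries lay above all 4 others. The next strongest were near ANKS1B, which codes for a synaptic protein (61.5 and 39.3), MCOLN3, an endolysosomal channel (50.8 and 39.4), TMC7, a transmembrane protein (47.7 and 40.7), and NT5E, the ectonucleotidase that makes adenosine (53.3 and 36.1).

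Those 4 sites also had more H3K27ac in the null line. The log2 fold changes against WT were 3.44 (SE 0.62), 3.05 (SE 0.52), 3.67 (SE 0.61) and 3.32 (SE 0.40). At NT5E the counts were 12 and 12 in WT, 20 and 14 in ALX1FV and 145 and 122 in ALX1FV ALX4-. The remaining 5 of the 10 strongest were near DTHD1, AUTS2, CTNNA1, an alpha-catenin gene, LRIG1, an inhibitor of growth factor receptors, and AKAP6, a scaffold for protein kinase A. H3K27ac rose by 3.04, 3.13, 2.51 and 2.97 at DTHD1, CTNNA1, LRIG1 and AKAP6, and the value of 2.28 at AUTS2 did not pass (adjusted p = 0.0883). Against ALX1FV the values at CTNNA1 and AKAP6 were 1.04 (adjusted p = 0.544) and 1.26 (0.248), and at CTNNA1 the ALX1FV counts of 4 and 12 overlapped the 32 and 10 of the null line. Without ALX1FV ALX4- replicate 1 the calls at CTNNA1 (adjusted p = 0.481) and AKAP6 (0.121) were lost, as they were without WT replicate 1 (0.103 and 0.0703), and CTNNA1 was also lost without WT replicate 2 (0.0584). All 10 sites had a peak in the hCNCC list, and 6 of the 10 held an E-box pair (MCOLN3, NT5E, AUTS2, CTNNA1, LRIG1 and AKAP6).

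The largest H3K27ac gain at a null-only site by fitted fold change lay at an ATAC peak 159909 bp from DMD, the dystrophin gene, with 0 and 0 counts in WT, 6 and 16 in ALX1FV and 28 and 12 in ALX1FV ALX4-. Against the floor of 3 counts over the WT libraries the null line was at least 13.3-fold higher, while the ALX1FV counts overlapped it (log2 fold change 0.53 against ALX1FV, adjusted p = 0.796). A promoter site of PDE2A, a cyclic nucleotide phosphodiesterase, had 8 and 4, 18 and 12, and 192 and 124 counts (log2 fold change 4.55 against WT, SE 0.44, adjusted p = 1.38e-06, and 3.04 against ALX1FV, SE 0.39, adjusted p = 9.07e-05). Its TWIST1 fold enrichment was only 6.92 and 4.19. A site near KIAA1217, an adaptor protein gene, rose by 4.52 (SE 0.67). A few null-only sites went the other way. At the promoter of EVA1A, a regulator of autophagy, counts were 155 and 122 in WT, 96 and 96 in ALX1FV and 48 and 40 in ALX1FV ALX4- (log2 fold change -1.78, SE 0.28, adjusted p = 0.000233). The TWIST1 call there was marginal, with fold enrichments of 4.09 and 3.19 and −log10 q of 4.05 and 1.66. That site was also in both WT lists at 3 h.

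WT-only sites were led by one near BBS12, a chaperonin-like gene of Bardet-Biedl syndrome, at chr4:122742616-122743854. Its fold enrichment was 51.3 and 46.0 in WT, and H3K27ac counts were 251 and 170 in WT, 78 and 107 in ALX1FV and 2 and 16 in ALX1FV ALX4- (log2 fold change -4.62, SE 0.46, adjusted p = 1.62e-06, and -3.62 against ALX1FV, SE 0.47, adjusted p = 0.000109). ALX1FV lay between the other lines. The sites that followed were near KIF4B, a kinesin gene (59.2 and 33), P4HA3, a collagen prolyl hydroxylase subunit (54.1 and 34.4), MN1, a transcriptional regulator needed for palate formation (39.2 and 39.1), and ZIM2, an imprinted zinc finger gene (36.4 and 39.2).

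H3K27ac fell by 4.64, 3.84 and 3.82 at KIF4B, P4HA3 and MN1, and at ZIM2 the change did not pass (adjusted p = 0.0578). At MN1 the counts were 236 and 158 in WT, 92 and 16 in ALX1FV and 14 and 16 in ALX1FV ALX4-, so 1 ALX1FV library was as low as the null line. Sites near the adhesion genes CDH9 and OPCML fell by 2.68 and 2.50, and one near ZNF43, a zinc finger gene, fell by 3.66. The call at CDH9 was lost without ALX1FV ALX4- replicate 1 (adjusted p = 0.0624), and DESeq2 did not call P4HA3. Against ALX1FV the value at P4HA3 was -2.13 (adjusted p = 0.182). The peak near NOS2, the inducible nitric oxide synthase, had 117 and 96 counts in WT, 42 and 30 in ALX1FV and 2 and 4 in ALX1FV ALX4-, and fell by 5.21 against WT (SE 0.51). A peak whose nearest start is METTL4, a methyltransferase gene, held 18 and 14 counts in WT, 4 and 14 in ALX1FV and 0 and 0 in ALX1FV ALX4-, at least 10.7-fold lower than WT against a floor of 3 counts over the null libraries. All 10 of the strongest WT-only sites were in both WT lists at 3 h, and P4HA3 and MN1 were absent from the hCNCC list.

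At ALX4 itself, 25 merged sites had it as their nearest gene, of which 12 were shared, 1 null-only and 1 WT-only. The site 1782 bp before its start (chr11:44309709-44312449, hg38) had fold enrichments of 45.7 and 50.4 in ALX4-null and 65.0 and 54.7 in WT, with no rank change (difference -0.01 normal scores, adjusted p = 0.98). H3K27ac in the ATAC peak at its summit fell by 0.96 on the log2 scale against WT (SE 0.18, adjusted p = 0.000988), and the value against ALX1FV was -0.62 (adjusted p = 0.0559). H3K27ac over the ALX4 start was 262 and 230 CPM in WT, 227 and 249 in ALX1FV and 160 and 147 in ALX1FV ALX4-. Further away, a site at chr11:44366158-44367847 ranked lower, with 26.6 and 29.5 against 96.5 and 70.7 (adjusted p = 0.0194), as did one at chr11:44426037-44427424, with 6.26 and 7.54 against 24.8 and 30.3 (adjusted p = 0.0143). Those 2 calls were lost without WT replicate 1 (adjusted p = 0.132 and 0.0833), the first also without ALX1FV ALX4- replicate 1 (0.102) and the second without WT replicate 2 (0.212).

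At the ALX1 promoter (chr12:85279640-85281075, hg38) the TWIST1 fold enrichment was 9.29 and 10.6 in ALX4-null and 22.5 and 24.2 in WT. The groups did not overlap, but the rank change did not pass (adjusted p = 0.169). H3K27ac there fell by 0.91 on the log2 scale against WT (SE 0.11, adjusted p = 1.93e-05) and by 0.44 against ALX1FV (SE 0.11, adjusted p = 0.0326). The second call was lost without ALX1FV replicate 1 (0.24) and without ALX1FV ALX4- replicate 1 (0.2). ALX1 was nearest to 2 weak WT-only sites, one in its own intron (3.64 and 4.93) and one 51367 bp from its start in an intron of another transcript (6.92 and 5.11). TWIST1 had 4 shared sites, none of which passed in rank, and its promoter site stood at 7.90 and 5.29 in ALX4-null and 5.36 and 6.75 in WT.

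Lists of genes gave shares of line-only sites near those of all sites, which were 5.03% null-only and 9.35% WT-only. Over all shared sites 5.39% ranked higher and 5.12% lower. Sites nearest to 24 of 25 homeodomain factors of face and limb mesenchyme numbered 331, of which 14 (4.23%) were null-only and 39 (11.8%) WT-only. Among the 126 shared ones, 3 (2.38%) ranked higher and 16 (12.7%) lower, with a median change of -2.95 percentile points. Null-only sites near PRRX1 (8.45 and 9.42), PAX7 (6.24 and 9.32) and MSX2 (6.53 and 7.11) were weak. For the 14 basic helix-loop-helix and ID genes, 15 of 225 sites (6.67%) were null-only and 22 (9.78%) WT-only. Of their 86 shared sites, 3 (3.49%) ranked higher and 5 (5.81%) lower. ID2, an inhibitor of E proteins, had a null-only site of 24.9 and 19.9 that was absent from all other hCNCC lists. H3K27ac rose there by 1.96 (SE 0.45, adjusted p = 0.00612, and 0.118 without WT replicate 1), with 1.5 against ALX1FV (adjusted p = 0.0636).

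Neural crest regulators (32 genes, 994 sites) had 54 null-only (5.43%) and 70 WT-only sites (7.04%), with 17 shared sites ranked higher (4.30%) and 22 lower (5.57%) of 395, near the 5.39% and 5.12% of all shared sites. Null-only sites near ETS1 (21.3 and 19.1), TBX3 (14.9 and 23) and at the promoter of ZEB1 (15.8 and 16.1) each held an E-box pair. The ZEB1 site was also in both WT lists at 3 h. The H3K27ac value at the ETS1 site was 0.37 on the log2 scale against WT (edgeR adjusted p = 0.84). H3K27ac at the TBX3 site rose by 3.44 (SE 0.88, adjusted p = 0.0128), a call lost without WT replicate 1 (0.123) or ALX1FV ALX4- replicate 1 (0.173), and the value against ALX1FV was 2.05 (adjusted p = 0.173). A WT-only site 56161 bp before SOX9, a regulator of cartilage and crest (21.8 and 15.0), had an H3K27ac change of -2.01 on the log2 scale (SE 0.47, adjusted p = 0.00651, and 0.0862 and 0.147 without those same 2 libraries). Craniofacial disease genes (30 of 34 with a site, 484 sites) had 24 null-only (4.96%) and 43 WT-only (8.88%). Of their 189 shared sites, 15 (7.94%) ranked higher and 16 (8.47%) lower, against 5.39% and 5.12% of all shared sites. The WT-only site nearest TBX22, mutated in cleft palate (36.9 and 25.7), had H3K27ac that fell by 3.75 on the log2 scale (SE 0.52, adjusted p = 5.64e-05).

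Signalling genes of the BMP, TGFB, FGF, WNT, PDGF and hedgehog pathways (48 of 51 with a site, 794 sites) had 38 null-only (4.79%) and 85 WT-only sites (10.7%), and 24 higher (7.06%) and 27 lower (7.94%) of 340 shared ones, against 5.39% and 5.12% of all shared sites. Null-only sites near the hedgehog co-receptor GAS1 (23.6 and 19.1), the receptor PTCH1 (20.3 and 14) and the effector GLI3 (17.1 and 10) all held an E-box pair, and H3K27ac rose at GAS1 by 3.53 against WT (SE 0.78, adjusted p = 0.00463), with a value of 0.38 against ALX1FV (adjusted p = 0.841). WT-only sites near the ligand BMP4 (28.8 and 24.0) and the receptor BMPR1A (17.8 and 15.3) had log2 H3K27ac changes of -1.07 (adjusted p = 0.158) and -2.24 (SE 0.35, adjusted p = 0.000225). Matrix, adhesion and guidance genes (41 genes, 1165 sites) had 55 null-only (4.72%) and 110 WT-only sites (9.44%), and 28 higher (6.00%) and 14 lower (3.00%) of 467 shared ones, beside the same 5.39% and 5.12%. The WT-only site near the collagen-binding proteoglycan gene DCN (12.8 and 15.7) had an H3K27ac change of -1.67 on the log2 scale (adjusted p = 0.0078, and 0.0814 and 0.0951 without WT replicate 2 or ALX1FV ALX4- replicate 1), with -0.94 against ALX1FV (adjusted p = 0.272).

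The genes with the most line-only sites were picked from all genes. Over all sites 5.03% were null-only and 9.35% WT-only, and no gene was tested against these shares. ROBO1, a guidance receptor, was nearest to 109 sites, of which 11 were null-only and 4 WT-only. TRIB2, a pseudokinase, had 8 null-only of 43, and FLRT2, GSE1 and RAD51B had 7 each of 85, 86 and 67. On the WT side, the adhesion molecules TENM3 and NTM had 16 of 78 and 14 of 72 and the receptors ADGRL2 and SORCS1 15 of 104 and 15 of 57. TENM3, ADGRL2 and NTM had no null-only site.

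Line-only sites were spread over the genome. Per chromosome, null-only sites made up between 4.2% (chromosome 18) and 6.03% (chromosome 19) of sites and WT-only sites between 5.86% (chromosome 19) and 10.8% (chromosome X). The median H3K27ac change against WT lay between -0.08 and 0.17 on every chromosome. It was 0.11 on chromosome 19 and highest on chromosome 22, which had 5.50% null-only and 6.59% WT-only sites. Medians over whole chromosomes would not show a change confined to an arm. Promoters, within 1 kb of a start site, held 18.4% of null-only, 12.2% of WT-only and 17.4% of shared sites, against 19.6% of all sites. Introns held 49.4%, 51.9% and 49.5%, and intergenic sequence 27.9%, 32.4% and 29.9%. The median distance to the nearest start was 9.09 kb for null-only, 12.5 kb for WT-only and 10.2 kb for shared sites. An ATAC peak overlapped 84.3% of null-only, 79.3% of WT-only and 96.2% of shared sites.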

How the data were processed

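TWIST1 ChIP-seq peaks were taken from 4 lists, 1 per library. Per the submitters' processing notes, Bowtie2 2.4.1, SAMtools 1.10, MACS2 2.2.7.1 and deepTools 3.5.0 were used with hg38 and mm39, and the sources used here do not give the control or threshold of peak calling. Each deposited list holds, per peak, the authors' fold enrichment (a ratio over control), a −log10 p and a −log10 q, by the standard column order. How many reads lie behind each list is unknown. These values were used only to rank, describe or filter peaks within a list. Of several summits in an interval, that with the highest −log10 p was used.

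The authors deposited whole-number counts of H3K27ac reads over 213151 merged ATAC peaks, not normalised. Between 78.4% and 80.6% of counts of 20 or more were even, as would be seen if both mates of a pair were counted. The 0 h libraries of WT, ALX1FV and ALX1FV ALX4- were fitted together with edgeR 4.0.16 (TMM, filterByExpr, quasi-likelihood test, no replicate block, Benjamini-Hochberg adjustment over 115518 peaks), and DESeq2 1.42.0 was an alternative. Ranks of shared sites were turned to normal scores and fitted with limma 3.58.1 over all 27897 sites. Both steps were tested on simulated data. Log2 CPM used a prior count of 2. Each SE of an H3K27ac change was derived from edgeR's test, as the absolute log2 fold change over the square root of the F statistic. The exact permutation tests are two-sided (scipy 1.17.1). Where nothing says that replicates are separate differentiations, p-values measure only the spread between these samples.

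Annotation is GENCODE 44, and the nearest gene is that of the nearest protein-coding start site. Sequences were read from the hg38 reference. Named were the ALX4, ALX1 and TWIST1 sites, the 10 strongest line-only sites and the 5 strongest with the composite or the E-box pair, the 5 shared sites per direction with the largest called rank change, the 3 strongest line-only sites per gene list, the 5 genes with the most line-only sites and the 5 largest called H3K27ac changes. The sites with an E-box pair were added to this rule after the data had been seen, and a subset of the sites it names is printed. The members, gene lists and motifs were chosen with earlier results of these data known.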

Additional observations from a re-analysis of the deposited data

How the results depend on the processing

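Of 178 alternative values of the counts and shares reported, 114 stayed within the spread or within 1.5 times and 64 moved. A change of sign was not scored for these. The difference in composite share, 0.0366 percentage points, became -1.44 with any 2 bases after TAAT and -0.00731 without ALX1FV ALX4- replicate 2. Asking for a −log10 q of at least 5 left 2535 null-only sites, and judging sites also in the WT 3 h and hCNCC lists, added after the data were seen, left 1598 null-only and 3361 WT-only sites. Leaving out 1 library loosens the rule and gave 5319 to 12000 null-only and 9588 to 18239 WT-only sites. The share of null-only sites in WT 3 h lists was 19.9% by summits within 100 bp, 16.2% with peaks of −log10 q of at least 5 and 19.5% with line-only sites of that strength. In the hCNCC list it was 49.7% and 56.6% under the last 2 settings. For WT-only sites the WT 3 h share was 83.1% with stronger sites, and the hCNCC share 70.5% and 74.3%. V5 peaks of ALX1FV ALX4- lay on 2.84% of shared sites at a −log10 q of at least 5, in place of a mean of 3.57%.

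The difference in composite share (null minus WT, percentage points) was 0.102 within 50 bp of the summit, -1.44 with any 2 bases after TAAT, and 1.18 in the strongest 2000 peaks. That in the E-box pair was 0.940 with the narrower E-box set, 2.98 at a −log10 q of at least 5 and 8.55 in the strongest 2000. Rank calls were 3502 higher and 3723 lower by −log10 p (column 8), and 862 and 727 on percentile ranks. Leaving out 1 library gave 760 to 1027 higher and 280 to 1668 lower.

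H3K27ac peaks higher against WT numbered 3394 by DESeq2. Leaving out 1 library gave 2249 to 3305 higher and 4786 to 5917 lower, 372 to 492 higher at null-only sites, 506 to 701 lower at WT-only sites and 3251 to 4072 lower at shared sites. Against ALX1FV the same ranges were 199 to 2576 and 1494 to 5190, 45 to 303, 112 to 500, and 1113 to 3755. With only the 2 groups compared, 471 peaks were higher and 1612 lower, with 106 higher at null-only, 132 lower at WT-only and 1275 lower at shared sites. Replicate numbers do not pair the samples. Deviations of same-numbered libraries correlated at -0.0017 for ranks and between -0.0263 and 0.0152 for H3K27ac. With the replicate block 1764 and 1804 rank calls and 4755 higher and 7605 lower H3K27ac peaks against WT were found, 663, 909 and 5069 of them at null-only, WT-only and shared sites, and 805 and 2946 against ALX1FV. The block moved no count past 1.5 times. Of 116 named H3K27ac calls, 1021 alternative values included 194 that lost the call and none that changed sign. For 12 named rank calls this was 4 of 97.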
